A study of Homo sapiens with 6 samples.

Results

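The BCL2 family of apoptosis regulators was described here through 10 genes, which are the rows whose symbol is BCL2, BCL2L1, BCL2L2, MCL1, BAX, BAK1, BBC3, PMAIP1, BCL2L11 or BID, out of 60546 gene identifiers measured. All 10 were found, each as 1 identifier, and all 10 passed the filter on low values. The cells were HCT-116, an established line from a human colon carcinoma. Both groups carried the viral vector PMSCV and were stable lines selected with puromycin, 3 libraries from HCT-116-PMSCV-GOLPH3 cells and 3 from HCT-116-PMSCV-Vector cells, whose vector was empty. The labels give both groups a wild type genotype and colon as the tissue, and the study's methods describe cells from different generations of each line. Titles also hold a P number that the labels do not explain, P8, P12 and P13 for replicates 1, 2 and 3 labelled GOLPH3 and P12, P11 and P13 for replicates 1, 2 and 3 labelled Vector. The labels do not say that the libraries of a group came from separate cultures, so p-values measure the spread between these libraries.

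Apoptosis through mitochondria is decided at the outer mitochondrial membrane. The effectors BAX and BAK1 form the pores that release cytochrome c, the anti-apoptotic proteins BCL2, BCL-xL (gene BCL2L1), BCL-w (gene BCL2L2) and MCL1 hold them in check, and the BH3-only proteins PUMA (gene BBC3), NOXA (gene PMAIP1), BIM (gene BCL2L11) and BID bind the anti-apoptotic proteins or activate the effectors directly. PUMA and NOXA are products of known p53 target genes, NOXA binds mainly MCL1, and BID links death receptors to mitochondria once caspase-8 has cut it. Colon carcinoma cells are known to depend on BCL-xL and MCL1, and HCT-116 cells are a common model for death through BAX.

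The bases just upstream of 4 members are shown, for BBC3, BCL2L1 and PMAIP1 because they had the largest fold changes and for BAX because it is the effector in the ratios given further on. They were taken from RefSeq on GRCh38.p14, from a window of 250 bases before to 50 after the gene start, kept only as far as the first base in any GENCODE 29 exon, and run 5′ to 3′ on the strand of the gene. Capitals mark matches, on either strand, to the E-box CACGTG, the core of the cAMP response element TGACG or the GC box GGGCGG. The stretches are chr20:31723990-31724213 on the minus strand for BCL2L1, chr19:48954625-48954814 on the plus strand for BAX, chr19:47232767-47232917 on the minus strand for BBC3 and chr18:59899746-59899947 on the plus strand for PMAIP1.
BCL2L1: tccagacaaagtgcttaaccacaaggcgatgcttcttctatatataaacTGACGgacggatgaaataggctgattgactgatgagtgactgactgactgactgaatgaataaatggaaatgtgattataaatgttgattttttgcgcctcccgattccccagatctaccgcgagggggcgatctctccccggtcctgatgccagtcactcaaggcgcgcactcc
BAX: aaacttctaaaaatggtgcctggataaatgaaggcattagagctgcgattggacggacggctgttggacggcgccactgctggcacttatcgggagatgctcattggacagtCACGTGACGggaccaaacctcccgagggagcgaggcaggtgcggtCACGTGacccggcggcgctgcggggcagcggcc
BBC3: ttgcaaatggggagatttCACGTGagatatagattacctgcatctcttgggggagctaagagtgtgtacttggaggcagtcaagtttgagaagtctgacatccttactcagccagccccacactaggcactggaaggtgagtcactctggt
PMAIP1: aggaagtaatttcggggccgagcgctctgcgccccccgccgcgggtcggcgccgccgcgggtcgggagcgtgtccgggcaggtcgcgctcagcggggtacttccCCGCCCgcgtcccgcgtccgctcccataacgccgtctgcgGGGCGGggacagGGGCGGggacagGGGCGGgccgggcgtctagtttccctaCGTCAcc

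The stretch before PMAIP1 was the richest in G and C of the 4, at 76.2% with 33 CpG dinucleotides in 202 bases, and held 4 GC boxes, a motif found in 35.4% of 35116 upstream windows of that length. BAX had 61.1% G and C with 17 CpG in 190 bases, BBC3 49.0% with 1 CpG in 151 bases, and BCL2L1 47.8% with 11 CpG in 224 bases. The E-box occurred 2 times before BAX, where 4.1% of windows of that length held it, and 1 time before BBC3, against 3.0% of windows. The cAMP response element core was found 1 time each before BCL2L1, BAX and PMAIP1, against 18.9%, 14.7% and 16.2% of windows, and in BAX it overlapped an E-box. No p53 response element, taken as a single decamer, lay in any of the 4 stretches, a motif held by 3.5% to 5.0% of windows of these lengths. Other start sites, exons and introns of these genes were not searched. The matches describe letters in these windows and say nothing of binding.

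Values are normalized reads, which are reads divided by a size factor per library, and fold changes are on the log2(normalized reads + 1) scale, positive where the GOLPH3-labelled libraries were higher than the Vector-labelled ones. Libraries held 15708846 to 21900764 recovered reads, so a gene at 0 could have up to 2.47 to 3.29 normalized reads (3 reads, counting error only). The GOLPH3 transcript itself was not detectably higher in the GOLPH3-labelled libraries, with 1629.5, 1272 and 1383 normalized reads against 1968, 1892 and 1472 (log2 fold change -0.31, limma adjusted p = 0.609), so groups go by label only. The study examined GOLPH3 protein by western blot and reported that the overexpressing HCT-116 line was made successfully. Protein was not measured in these libraries. Of 16 colon epithelial markers, 10 were higher without overlap in the GOLPH3-labelled libraries (summed levels from 86279 to 160630 against 39645 to 46134 normalized reads). KRT8 alone had 25226 to 75110 against 13626 to 23728 normalized reads. LGALS4, which is among the 10, was low at 2.14 to 5.37 against 0 to 2.06 normalized reads. CEACAM5, CEACAM6 and VIL1 were low and overlapped between the groups, with CEACAM6 at 0 to 5.34 against 3.29 to 19.6 normalized reads. KRT20 had no reads in any library. Of 10 non-epithelial markers, 10 were lower without overlap (478 to 777 against 7123 to 17968 normalized reads), and ZEB2, IRS4, UCHL1, NEFM and HAND1 had no reads in any library labelled GOLPH3. The marker lists were chosen with earlier results of these data known, so the marker counts are a description only. Over all genes tested, 22.0% had groups that did not overlap, and 12.8% were lower without overlap. Of 6 leukocyte, endothelial and fibroblast markers, 4 never exceeded 3 reads, and the summed levels of 807 to 1504 against 470 to 728 normalized reads were nearly all COL1A1, which alone had 799.9 to 1499 against 465.6 to 726 normalized reads. The epithelial markers without overlap and the non-epithelial markers moved with the groups in every comparison below, and their part in the members' differences was not tested. In bulk RNA fewer cells of a type and less RNA per cell cannot be told apart.

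Between the groups the 10 members lay on both sides of no change. At an adjusted p under 0.05 limma called 0 of the 10 (0 higher), where it called 5.07% of the 26536 genes tested and 0.953% as higher. At an unadjusted p under 0.05 there were 4 members, 2 higher (BCL2L1 and BBC3, background 7.51%) and 2 lower (BCL2 and PMAIP1, background 10.1%), and 17.6% of all genes passed in either direction. With an absolute log2 fold change over 1 as well, 3 members passed (BCL2L1, BBC3 and PMAIP1), against 14.2% of all genes. The median log2 fold change was 0.14 over the members, of which 6 were positive, and 0.02 over all genes, of which 13512 were positive. On the recovered reads DESeq2 called 2 members, BCL2L1 and BBC3, against a background of 8.68%, and edgeR called 0 against 6.58%. The groups did not overlap for 1 member, BCL2, where 22.0% of all genes had groups that did not overlap.

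**Figure D1:**
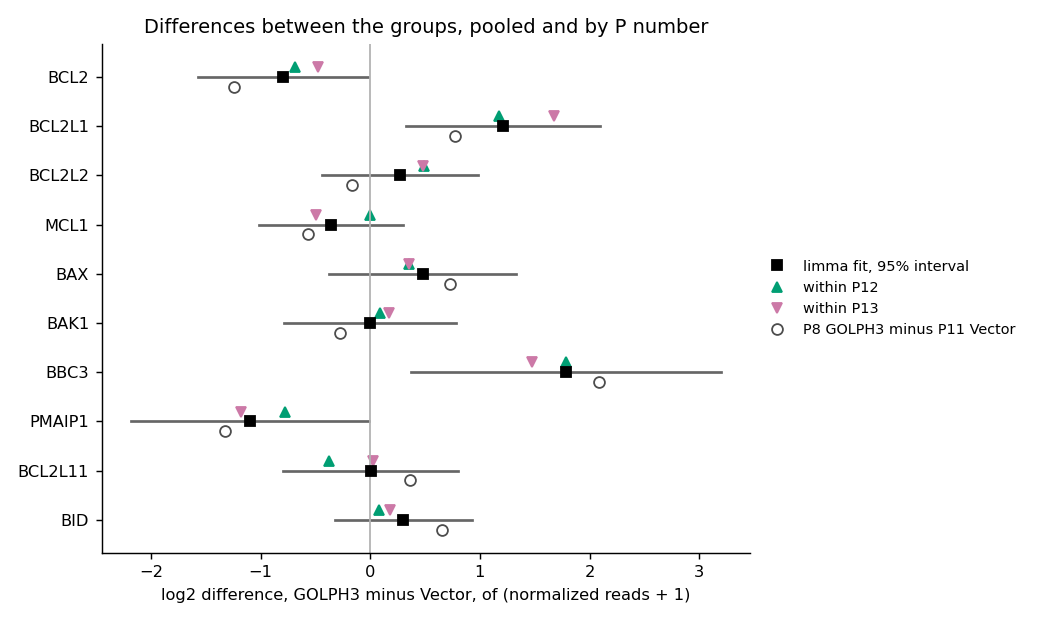
Log2 fold changes of the 10 members from limma, GOLPH3 minus Vector, with 95% confidence intervals (squares and lines), and the differences within the P12 pair, within the P13 pair and for P8 against P11 (triangles and open circles), on a horizontal log2 axis. BBC3 and BCL2L1 lie highest at 1.78 and 1.21, PMAIP1 and BCL2 lowest at -1.09 and -0.80, and the interval of each of the other 6 members crosses 0.

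Per kilobase of annotated exons, the members covered a wide range of levels. PMAIP1 was the highest, with a mean of 3141 normalized reads per kilobase over the 6 libraries and a range from 1024 to 6827. MCL1 followed at 1435 per kilobase and lay below PMAIP1 in 6 of 6 libraries, although the ranges of the pair overlapped between libraries. BCL2L1 came next at 709 per kilobase, below MCL1 in 5 libraries. BAX, BAK1 and BBC3 followed at 403, 383 and 275 per kilobase, with ranges that overlapped between neighbours and no constant order, BAX being above BAK1 in 3 of 6 libraries. The place of BBC3 varied between libraries. Its mean was 419 per kilobase in the GOLPH3-labelled libraries and 130 in the Vector-labelled ones, there below BID at 155 and BCL2L2 at 151. That Vector mean was lowered by the P11 library at 34.5, the P12 and P13 libraries labelled Vector having 177 and 179. BBC3 exceeded BID in 3 of 6 libraries. It did so in the P12 library labelled Vector (177 against 163) but not in the P8 library labelled GOLPH3 (148 against 191). BID and BCL2L2 were close, at 172 and 170 per kilobase. BCL2L11 was lower at 77.4 per kilobase and BCL2 the lowest at 12.1 per kilobase, each below its upper neighbour in 6 of 6 libraries with ranges that did not overlap. The exon length joins all annotated transcripts of a gene, so that a gene with a long rarely used exon reads low on this scale.

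**Figure D2:**
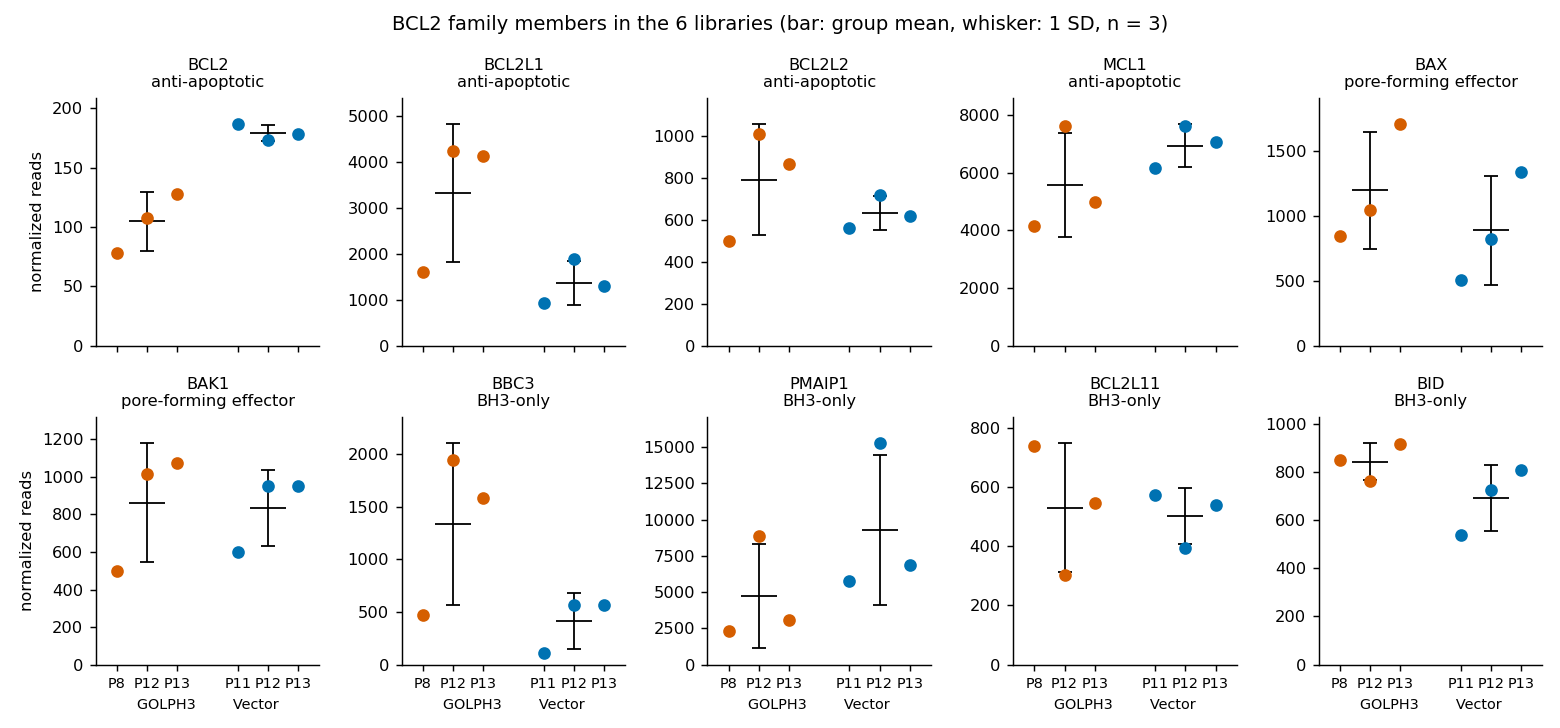
Normalized reads (vertical axes, linear from 0, a scale for each gene) of the 10 members in each of the 6 libraries, in order of P number within the GOLPH3-labelled libraries and Vector, with the group mean as a bar and 1 SD as whiskers (n = 3). For BCL2 the 3 libraries labelled GOLPH3 all lie below the 3 labelled Vector, and for BCL2L1, BBC3 and 5 other members the lowest point of each group is the library with the lowest P number.

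Among the anti-apoptotic members, BCL2L1 was higher on average in the GOLPH3-labelled libraries and BCL2 was lower, and neither passed the adjusted test. BCL2L1 encodes BCL-xL (ENSG00000171552, chromosome 20 from 31664452 to 31723989, minus strand, GENCODE 29 on GRCh38). It had 1601, 4241 and 4142 normalized reads in GOLPH3-labelled replicates 1 to 3 and 1881, 933 and 1298 in the Vector-labelled ones. The P12 and P13 libraries labelled GOLPH3 stood above all others, while the P8 library lay among the Vector values, so the groups overlapped. Mean levels were 3328 ± 1497 (SD, n = 3) against 1371 ± 478 (SD, n = 3), which gave 1.21 as the log2 fold change (SE 0.41, limma adjusted p = 0.128, 95% confidence interval 0.32 to 2.09). The difference was 1.17 between the P12 libraries, 1.67 between the P13 libraries and 0.78 for P8 against P11, all in the same direction. DESeq2 on the recovered reads gave 1.28 with an adjusted p of 0.0372, whereas edgeR gave an adjusted p of 0.0981. Without GOLPH3 replicate 1 the limma value was 1.67 with an adjusted p of 0.0134. It was lower without GOLPH3 replicate 2 (0.97, adjusted p = 0.322), GOLPH3 replicate 3 (0.98, adjusted p = 0.410) or Vector replicate 2 (0.96, adjusted p = 0.296). Over all alternatives tried the adjusted p ran from 3.84e-09, in limma with the P number as a block, to 0.410. That block rests on 2 complete pairs. Limma on the P12 and P13 libraries alone, chosen after the values were seen, gave the same 1.42 with an adjusted p of 0.0301. A value per gene cannot separate the long, anti-apoptotic transcript of BCL2L1 from the short, pro-apoptotic one. The exons also share 1424 bases with the antisense gene ABALON, which had 171, 178 and 279 against 90.6, 38.3 and 69.5 normalized reads, and since the sources do not state that counting used strand, reads of the pair cannot be told apart.

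BCL2, the founding member, is a minus-strand gene on chromosome 18, from 63123346 to 63320128 (ENSG00000171791). Its values were 78.4, 107 and 128 normalized reads in the GOLPH3-labelled libraries and 173, 186 and 178 in the Vector-labelled libraries. Every library labelled GOLPH3 was below every library labelled Vector, and the Vector values were close together. Mean levels were 105 ± 25.0 (SD, n = 3) against 179 ± 6.69 (SD, n = 3), with a log2 fold change of -0.80 (SE 0.36, limma adjusted p = 0.269, 95% confidence interval -1.58 to -0.02). The exact two-sided permutation p was 0.1, the smallest that 3 libraries against 3 can give. The difference had the same direction within P12 (-0.68), within P13 (-0.48) and for P8 against P11 (-1.24). No alternative tried gave BCL2 an adjusted p under 0.05, the lowest being 0.157.

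MCL1 encodes a short-lived anti-apoptotic protein that many cells need to stay alive (ENSG00000143384, chromosome 1 from 150574551 to 150579738, minus strand). It had 4154, 7622 and 4999 normalized reads in the GOLPH3-labelled libraries and 7621, 6170 and 7064 in the Vector-labelled libraries. The P12 libraries of the groups were nearly equal and the groups overlapped, with a log2 fold change of -0.36 (95% confidence interval -1.01 to 0.30, limma adjusted p = 0.593). BCL2L2, which encodes BCL-w, had 501, 1013 and 868 normalized reads against 719, 562 and 621, and here too the P8 library was the lowest of all 6. Its log2 fold change was 0.27 (95% confidence interval -0.44 to 0.98, limma adjusted p = 0.726). BCL2L2 shares 813 exon bases on its own strand with the readthrough gene BCL2L2-PABPN1 and 206 on the other strand with PPP1R3E, so its reads are uncertain to that extent.

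The makeup of the anti-apoptotic transcripts was also compared within each library. Of the summed level per kilobase of BCL2, BCL2L1, BCL2L2 and MCL1 in a library, BCL2L1 made up 31.0% to 47.9% in the GOLPH3-labelled libraries and 15.3% to 22.7% in the Vector-labelled libraries. MCL1 made up 43.8% to 60.9% and 69.8% to 76.6%. BCL2 took 0.278% to 0.427% against 0.589% to 0.859%, and BCL2L2 took 7.38% to 7.93% against 6.83% to 7.28%. None of the 4 shares overlapped between the groups, that of BCL2L2 only narrowly (7.38% as lowest against 7.28% as highest). As levels, BCL2L1, BCL2L2 and MCL1 overlapped and only BCL2 did not, where 22.0% of all genes had groups that did not overlap. No background over all genes was computed for shares. The shares sum to 100% in a library and so move against each other, and they were chosen after the values were seen and were not tested. A share does not depend on the size factor of the library.

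The effectors BAX and BAK1 differed between the groups by less than the spread between libraries. BAX, whose product moves from the cytosol to mitochondria to form pores, is a plus-strand gene on chromosome 19, from 48954815 to 48961798 (ENSG00000087088). Its values were 843, 1048 and 1705 normalized reads in the GOLPH3-labelled libraries and 819, 508 and 1338 in the Vector-labelled libraries. In both groups the P13 library was the highest and the library with the lowest P number the lowest, and the groups overlapped. The log2 fold change was 0.48 (95% confidence interval -0.37 to 1.33, limma adjusted p = 0.579), with 0.35 within P12, 0.35 within P13 and 0.73 for P8 against P11. Leaving out 1 library moved it between 0.13 (without Vector replicate 2) and 0.83 (without Vector replicate 3), with no adjusted call in limma. BAK1, whose product resides in the mitochondrial membrane, had 497, 1016 and 1072 normalized reads against 953, 601 and 949. Again the P8 and P11 libraries were the lowest of their groups. Its log2 fold change was -0.00 (95% confidence interval -0.78 to 0.78, limma adjusted p = 0.999), an interval that leaves room for a difference in either direction.

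The balance of BAX against the anti-apoptotic genes was compared as a ratio within each library. BAX was 10.8, 9.78 and 13.3 times BCL2 in the GOLPH3-labelled libraries and 4.74, 2.73 and 7.50 times BCL2 in the Vector-labelled libraries. The groups did not overlap. As levels, BAX overlapped between the groups and BCL2 did not, and no background over all genes was computed for ratios. The mean log2 ratio was 3.47 ± 0.23 (SD, n = 3) against 2.19 ± 0.73 (SD, n = 3). The difference of 1.28 had an exact two-sided permutation p of 0.1, the smallest that the design allows, and 0.2 after adjustment over the 2 ratios tested. It was 1.04 within P12 and 0.82 within P13. BAX against BCL2L1 went the other way, at 0.526, 0.247 and 0.412 in the GOLPH3-labelled libraries and 0.436, 0.545 and 1.03 in the Vector-labelled libraries. Here the groups overlapped, and the difference in mean log2 ratio of -0.73 had an exact permutation p of 0.2, with an adjusted p of 0.2 over the 2 ratios. It was -0.82 within P12 and -1.32 within P13. The ratios compare normalized reads and are not scaled by length, so only their differences between libraries can be read.

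**Figure D3:**
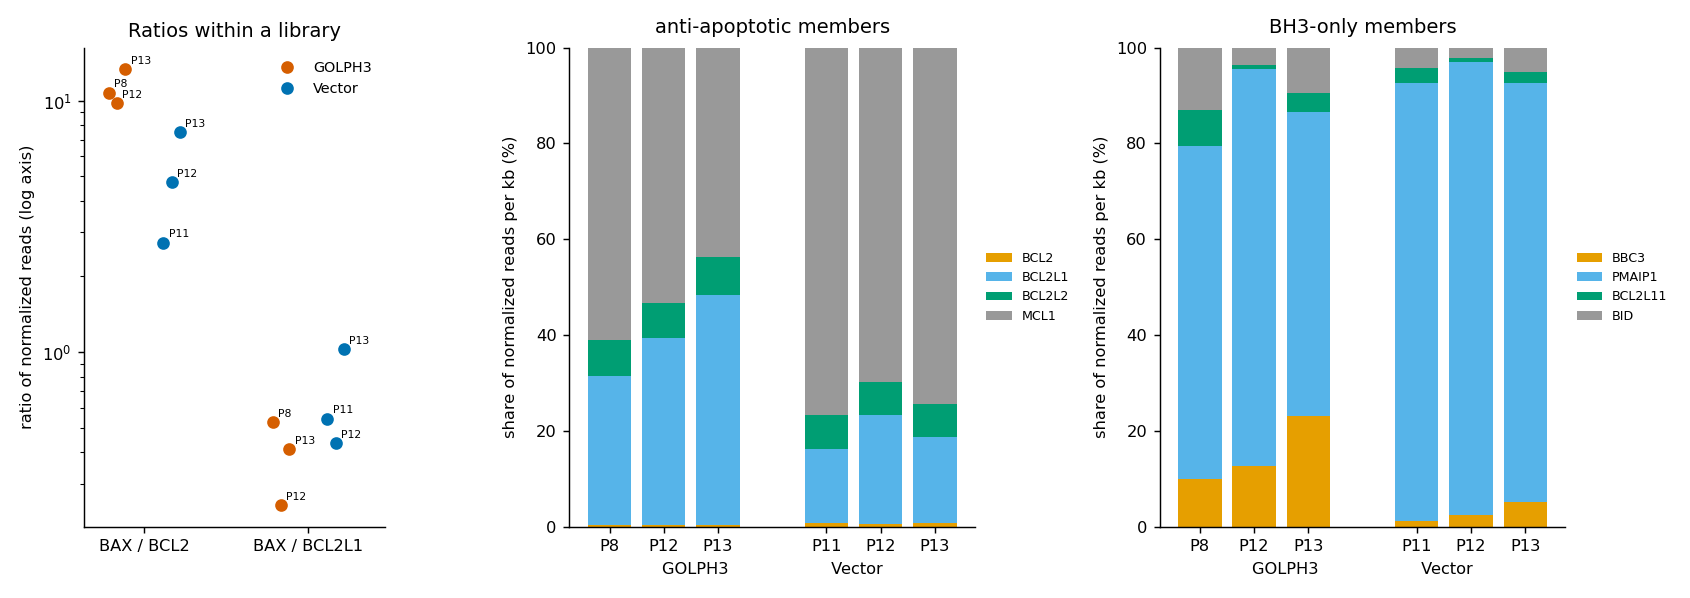
Ratios of normalized reads of BAX to BCL2 and of BAX to BCL2L1 in each library on a log axis, and stacked bars of the share (percent) of each anti-apoptotic and BH3-only member in the level per kilobase summed over its role, for the 3 libraries labelled GOLPH3 and the 3 labelled Vector. The BAX to BCL2 ratios lie higher in every library labelled GOLPH3, and the shares of BCL2L1 and MCL1 lie apart between the groups at 31.0% to 47.9% against 15.3% to 22.7% and 43.8% to 60.9% against 69.8% to 76.6%.

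The BH3-only members lay in different directions, BBC3 being higher on average in the GOLPH3-labelled libraries and PMAIP1 lower, with no adjusted call for either. BBC3 encodes PUMA, which binds every anti-apoptotic family protein (ENSG00000105327, chromosome 19 from 47220822 to 47232766, minus strand). It had 469, 1949 and 1581 normalized reads in the GOLPH3-labelled libraries and 564, 109.6 and 569.8 in the Vector-labelled libraries. The P8 library was below both the P12 and the P13 library labelled Vector, and the P11 library was far below the rest. Mean levels were 1333 ± 771 (SD, n = 3) against 414 ± 264 (SD, n = 3), and the log2 fold change of 1.78 was the largest of the 10 members (SE 0.65, limma adjusted p = 0.163, 95% confidence interval 0.37 to 3.19). It was 1.79 within P12, 1.47 within P13 and 2.09 for P8 against P11. DESeq2 gave 1.69 with an adjusted p of 0.0378 and edgeR an adjusted p of 0.157. Without GOLPH3 replicate 1 the limma value was 2.42 with an adjusted p of 0.0298, and without Vector replicate 2 it was 0.995 with an adjusted p of 0.376. Over all alternatives the adjusted p ran from 4.88e-10, in limma with the P number block of 2 complete pairs, to 0.434. Limma on the P12 and P13 libraries alone gave the same 1.63 as the block with an adjusted p of 0.0140.

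PMAIP1 encodes NOXA (ENSG00000141682, chromosome 18 from 59899948 to 59904306, plus strand). Its values were 2289, 8877 and 3056 normalized reads in the GOLPH3-labelled libraries and 15258, 5735 and 6904 in the Vector-labelled libraries. The P12 library was the highest of each group, and the P12 library labelled GOLPH3 exceeded 2 of the 3 Vector libraries. Mean levels were 4741 ± 3603 (SD, n = 3) against 9299 ± 5194 (SD, n = 3), with a log2 fold change of -1.09 (SE 0.50, limma adjusted p = 0.280, 95% confidence interval -2.18 to -0.01). The difference was -0.78 within P12, -1.18 within P13 and -1.32 for P8 against P11. Without GOLPH3 replicate 2 the log2 fold change was -1.68 with a limma adjusted p of 0.0407, whereas it was -0.67 without Vector replicate 1 (adjusted p = 0.641) and -0.70 without GOLPH3 replicate 1 (adjusted p = 0.469). Over all alternatives the adjusted p ran from 8.05e-05, in limma with the P number block of 2 complete pairs, to 0.641. Limma on the P12 and P13 libraries alone gave the same -0.98 as the block with an adjusted p of 0.366.

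BCL2L11, which encodes BIM, had 737, 302.6 and 548 normalized reads in the GOLPH3-labelled libraries and 393, 574 and 539 in the Vector-labelled libraries. It was lowest in the P12 library of each group, the opposite of PMAIP1. The log2 fold change was 0.00 (95% confidence interval -0.79 to 0.80, limma adjusted p = 0.999). The exons of BCL2L11 share 727 bases with MIR4435-2HG on the other strand, whose 396.1 to 1329 normalized reads in the GOLPH3-labelled libraries and 333.0 to 740.1 in the Vector-labelled libraries are of the same order, so the BCL2L11 values are uncertain. BID had 849, 764 and 916 normalized reads against 725, 540.1 and 808, with a log2 fold change of 0.30 (95% confidence interval -0.32 to 0.93, limma adjusted p = 0.641). Its values varied least of the BH3-only members in the GOLPH3-labelled libraries, at 843 ± 76.3 (SD, n = 3).

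Of the summed level per kilobase of the 4 BH3-only members, PMAIP1 made up 63.5% to 82.7% in the GOLPH3-labelled libraries and 87.5% to 94.5% in the Vector-labelled libraries. BBC3 made up 10.0% to 23.1% against 1.23% to 5.08%. These shares did not overlap between the groups, while those of BCL2L11 (0.947% to 7.52% against 0.817% to 3.07%) and BID (3.58% to 12.96% against 2.26% to 5.14%) did. As levels, PMAIP1 and BBC3 overlapped between the groups. As with the anti-apoptotic shares, this is a description with no test and no background over all genes.

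Several members had the same lowest or highest library by P number in both groups, a pattern described after the values were seen. For 7 of the 10 members, BCL2L1, BCL2L2, MCL1, BAX, BAK1, BBC3 and PMAIP1, the lowest library of each group was the one with the lowest P number (P8 and P11), where 20.4% of all genes did so. These libraries also had the highest share of mitochondrial reads of their groups, at 9.97% for P8 against 4.41% and 9.75%, and 9.88% for P11 against 7.08% and 4.71%, whose part in the pattern was not tested. BBC3 was lower there than the mean of the other 2 libraries, with a log2 difference of -1.90 in the GOLPH3-labelled libraries and -2.36 in the Vector-labelled libraries, and for BCL2L1 the differences were -1.39 and -0.74. BCL2L11 was the reverse, being higher in P8 and P11 by 0.86 and 0.32. The P12 library was the highest of each group for BCL2L1, BCL2L2, MCL1 and PMAIP1, 4 of 10 members against 14.0% of genes, and the P13 library for BAX and BID, 2 of 10 against 18.5%. The sign of the difference between groups was the same within P12, within P13 and for P8 against P11 for 6 members, BCL2, BCL2L1, BAX, BBC3, PMAIP1 and BID, where this held for 50.2% of genes. With the P12 and P13 libraries alone, limma gave BCL2L1 1.42 (adjusted p = 0.0301) and BBC3 1.63 (adjusted p = 0.0140), a comparison added after the values were seen with a background of 3.90% called. The P number as a covariate gave 2 member calls (BCL2L1 and BBC3) where 9.04% of genes were called, and as a block, with 2 complete pairs only, 3 (with PMAIP1) where 22.9% were called. Each P number has at most 1 library per group, and P8 and P11 are present in 1 group each.

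Among other genes of the pathway, 3 were called by limma at an adjusted p under 0.05, all higher in the GOLPH3-labelled libraries. All 3 were without overlap between the groups, as were 22.0% of all genes tested. The 3 were BOK, a BAX-like effector, and TNFRSF10C and TNFRSF10D, the decoy receptors for the death ligand TRAIL. BOK had 704, 1024 and 1247 against 406, 288 and 353 normalized reads (log2 fold change 1.48, limma adjusted p = 0.0162). TNFRSF10D had 1565, 910 and 1751 against 295, 730 and 286 normalized reads (1.78, limma adjusted p = 0.0241), and TNFRSF10C was low, with 25.8, 40.4 and 42.7 against 3.09, 3.29 and 8.58 (2.72, limma adjusted p = 0.0173). Leaving out single libraries ended calls in limma. BOK had an adjusted p of 0.0561 without GOLPH3 replicate 2, 0.0955 without GOLPH3 replicate 3, 0.0636 without Vector replicate 1 and 0.0620 without Vector replicate 3. TNFRSF10C lost its call without GOLPH3 replicate 2, GOLPH3 replicate 3 or Vector replicate 1 (adjusted p from 0.0608 to 0.0974), and TNFRSF10D without GOLPH3 replicate 1, GOLPH3 replicate 3, Vector replicate 1 or Vector replicate 3 (adjusted p from 0.0515 to 0.130). TNFRSF10D also lost it with a pseudocount of 0.1 (adjusted p = 0.0508) and with the stricter filter (adjusted p = 0.0520). edgeR called the same number of listed genes, 3, and DESeq2 called 6, adding GDF15, PHLDA3 and USP9X. Over 98 tested genes of 9 lists, each gene counted once, 50 had a positive log2 fold change with a median of 0.01, and at an unadjusted p under 0.05 there were 11 higher and 7 lower, where the backgrounds over all genes were 7.51% and 10.1%. The 3 adjusted calls of 98 stand beside 5.07% of all genes called in either direction and 0.953% called higher.

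The family relatives outside the members are pore-forming or BH3-only genes and divergent homologues. Of 7 other pore-forming or BH3-only genes limma called 1 as higher, BOK, beside 0.953% of all genes. At an unadjusted p under 0.05, 2 were higher, BOK and BIK, beside 7.51% of all genes, and 0 lower. The next smallest p after BOK belonged to the BH3-only genes BIK (log2 fold change 1.06, limma adjusted p = 0.268) and BAD (0.84, limma adjusted p = 0.339). Of 4 homologues none was called, 0 also at an unadjusted p under 0.05, with BCL2L14 at -0.84, BCL2L15 at -0.56 and BCL2L12 at 0.17. The anti-apoptotic relatives BCL2A1 and BCL2L10 did not pass the filter on low values.

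Downstream of the pores, 17 genes for cytochrome c, the apoptosome, caspases and mitochondrial channels centred on a median log2 fold change of -0.14, with 0 adjusted calls by limma and 2 lower at an unadjusted p under 0.05. DFFA, the inhibitor of the apoptotic nuclease, passed that unadjusted threshold (-0.71, limma adjusted p = 0.179). DNM1L, which divides mitochondria, did not (-0.57, limma unadjusted p = 0.0951, adjusted p = 0.388). Of 7 inhibitors of apoptosis none was called, 0 also at an unadjusted p under 0.05, with BIRC7 at 1.39, XIAP at -0.33 and BIRC3 at -0.45. Upstream of BID, limma called 2 of 13 death receptor genes tested as higher, the decoy receptors, beside 0.953% of all genes, with a list median of 0.57. At an unadjusted p under 0.05 there were 4 higher and 1 lower in this list, beside 7.51% and 10.1% of all genes. TNFRSF10A, a signalling receptor for TRAIL, was at 1.13 (limma adjusted p = 0.139).

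Of 25 genes for p53 and its targets outside the members, limma called 0 at an adjusted p under 0.05, and at an unadjusted p under 0.05 there were 5 higher and 1 lower, beside 7.51% and 10.1% of all genes. With the P number as a covariate 4 of the 25 were called, where 9.04% of all genes were, and with the P number block 12, where 22.9% were. PHLDA3, an inhibitor of Akt, was at 1.52 (limma adjusted p = 0.0544, DESeq2 1.52 with an adjusted p of 0.00888), the secreted stress factor GDF15 at 2.19 (limma adjusted p = 0.0745, DESeq2 1.79 with an adjusted p of 0.0171) and the mitophagy gene SPATA18 at -2.15 (limma adjusted p = 0.146). Of 16 other transcription factors known to act on BH3-only genes 0 were called and 2 were lower at an unadjusted p under 0.05, FOXO1 at -0.93 (limma adjusted p = 0.159) and STAT5B at -0.81 (limma adjusted p = 0.189), with TP63 at 1.42 (limma adjusted p = 0.347). Of 11 genes that set the turnover of the MCL1 protein, 0 were called and USP9X, a deubiquitinase of MCL1, was lower at an unadjusted p under 0.05 (-1.04, limma adjusted p = 0.067, DESeq2 adjusted p = 0.0391), with CDC20 at 0.62 and USP13 at -0.25.

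**Figure D4:**
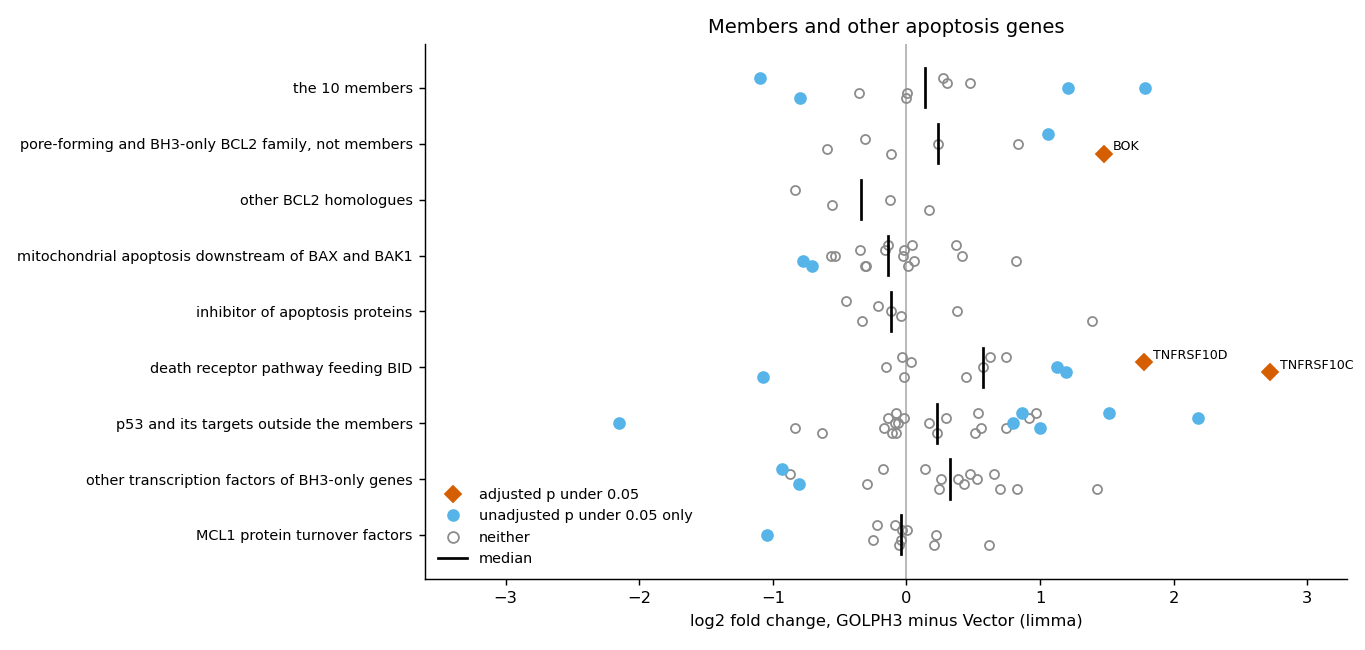
Log2 fold changes from limma (horizontal axis, GOLPH3 minus Vector) of the 10 members and of the genes in each apoptosis list that had tested genes, with 1 point per gene and the list median as a vertical bar. Diamonds mark BOK, TNFRSF10D and TNFRSF10C at 1.48, 1.78 and 2.72, the only listed genes with an adjusted p under 0.05, and filled circles those past the unadjusted threshold alone.

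The genes whose pattern over the 6 libraries was most like that of BCL2L1, the member with the smallest p, were TICAM1, SH2D3A and SEMA7A among 11266 genes with a mean of at least 100 normalized reads. Their Pearson correlations with BCL2L1 on the log2 scale were 0.999, 0.995 and 0.995, given as a description, since 6 points that share libraries and size factors allow many close matches and 607 genes had a correlation over 0.9. TICAM1, an adaptor of Toll-like receptor signalling, ran from 344 normalized reads in the P11 library labelled Vector to 1521 in the P13 library labelled GOLPH3.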

How the data were processed

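The authors sequenced RNA of HCT-116 cells, 3 libraries labelled PMSCV-GOLPH3 and 3 labelled PMSCV-Vector. The submitters' processing notes name fastp 0.20.0, HISAT2 2.1.0, Cufflinks, featureCounts 1.6.1, DESeq2 and GRCh38, with no role or order, and the annotation and strand setting are not given in the sources used here. The authors deposited a signal for each gene in each library, and throughout 100.00% of nonzero values were whole multiples of a step per library between 0.8246 and 1.0955 (tolerance 0.05 steps), so the authors' values are reads divided by a size factor, without length correction. Of 60590 rows, 44 repeated an identifier and were summed with its other row.

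limma 3.58.1 in R 4.3.3 with a mean-dependent prior was fitted to log2(value + 1) of the 26536 genes that reached 1 in 3 or more libraries, with Benjamini-Hochberg adjustment over all of them. Low genes have their changes understated on this scale. DESeq2 1.42.0 and edgeR 4.0.16 were run on the recovered reads. The scripts were tested on simulated data. No libraries of a group agreed within sampling noise (chi-square per degree of freedom at least 65.35). Coordinates, exon lengths and overlaps come from GENCODE 29 on GRCh38, and upstream sequences of 4 members from RefSeq.

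Named were all 10 members, GOLPH3, from each list the 3 genes with the smallest unadjusted p and every adjusted call, and the 3 genes most correlated with the member of smallest p. Members and lists were chosen with earlier results of these data known. The gene listed as both MARCHF5 and MARCH5 was matched as MARCHF5, and DUB3 was not matched. A gene that the naming rule selected is not reported here.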

Additional observations from a re-analysis of the deposited data

Results flagged for a closer look

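BCL2L11, the gene of the BH3-only protein BIM, differed in sign between the pairs of libraries that share a P number, although in the P13 pair the levels were nearly equal. The log2 difference between the library labelled GOLPH3 and the one labelled Vector was -0.38 in the P12 pair and 0.023 in the P13 pair. MCL1 also differed in sign, with nearly equal levels in the P12 pair (0.00019) and -0.50 in the P13 pair. With 1 library per group in each pair the difference between the pairs was not tested. Groups of 3 libraries were not searched for single outlying values.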

How the results depend on the processing

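Limits come from 3 libraries per group, whose spread differs by gene. The count of members called, 0 in limma, was 2 with DESeq2, 3 with the P number as a block, 2 with it as a covariate, 2 with the P12 and P13 libraries alone (chosen after seeing the data), 3 at an unadjusted p under 0.05 with a change over 1, and 0 to 2 with 1 library left out (2 without GOLPH3 replicate 1, and 1, PMAIP1, without GOLPH3 replicate 2). Over all genes the 1346 calls became 6082 with the P number block, 2399 with the covariate, 405 with the stricter filter, 3776 at the unadjusted rule and 459 to 1528 with 1 library left out (459 without Vector replicate 1, 481 without Vector replicate 3, 881 without GOLPH3 replicate 3, 895 without Vector replicate 2). The P number block has only 2 complete pairs. The 3 calls in the lists became 6 with DESeq2, 36 with the P number block, 11 with the covariate, 5 without a filter and 0 to 6 with 1 library left out. The sign of BAK1 turned to 0.046 with DESeq2 and 0.049 with edgeR, 0.13 with the P number block and with the P12 and P13 libraries alone, 0.24 with the covariate, and ran from -0.22 to 0.35 with 1 library left out. That of BCL2L11 turned to -0.18 with the block and with the P12 and P13 libraries alone and -0.14 with the covariate, and ran from -0.28 to 0.36 with 1 library left out. Among other named genes BCL2L15 turned to 0.10 and BIRC3 to 0.12 with the P number block and with the P12 and P13 libraries alone, and BCL2L12 ran from -0.16 to 0.46 with 1 library left out. The cause was not tested. The other 8 members kept their direction in all 16 alternatives.

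The BAX to BCL2 difference ran from 0.90 to 1.63 and the BAX to BCL2L1 difference from -0.99 to -0.37 with 1 library left out. The replicate numbers do not pair the libraries, since the correlations of deviations from the group means were -0.23, -0.15 and 0.26 for numbers 1, 2 and 3. A replicate block gave 0 member calls and 1081 over all genes, and TNFRSF10D had an adjusted p of 0.0746 in limma. Deviations correlated at 0.33 for P8 with P11 and 0.26 for each pair sharing a P number.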
